A study of Mus musculus with 3 samples.

Results

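The 78 mouse genes described here are named as proteins of the mitochondrial ribosome. They were taken as every gene of the annotation GENCODE M21 with the type protein coding and a name that begins with Mrpl or Mrps and a number. They are 78 of 22028 protein-coding genes and of 55536 annotated genes in all, with 49 named for the large subunit (Mrpl) and 29 for the small subunit (Mrps). Sequencing of polyA-selected RNA gave the levels of their transcripts in regulatory T cells that the submitters describe as having experienced inflammation. The cells formed 1 biological replicate, labelled male, adult and of 16 weeks. The strain name, Foxp3GFP-DTRCD4CreERT2R26tdTomato, joins a GFP and diphtheria toxin receptor at Foxp3, a CreERT2 recombinase named for CD4, and a tdTomato reporter at R26. CreERT2 is a form of Cre that tamoxifen activates. The labels give no tissue beyond the whole organism, and no agent or time of treatment. The 3 sequencing libraries, called library 1, library 2 and library 3, form the only group. The labels call them technical replicates of 1 biological replicate. Each SD below therefore measures the spread between libraries, and each p-value sets their differences against counting error alone. Neither measures the spread between animals.

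The mitochondrial ribosome, or mitoribosome, sits in the mitochondrial matrix and makes the few respiratory chain and ATP synthase subunits that mitochondrial DNA still encodes. Its ribosomal RNAs come from mitochondrial DNA, while all of its proteins are encoded in the nucleus, translated in the cytosol and imported. Some of these proteins descend from the bacterial ribosome, and the others were added in mitochondria. In T cells, mitochondrial translation is known to be needed for the growth of respiration that follows activation, and regulatory T cells are known to rely strongly on respiration.

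The label of the cells was checked on markers. The T cell genes Cd3e, Trac and Cd4 had means of 1330, 2930 and 266 TPM, where TPM is a transcript level scaled for length and sequencing depth to a fixed sum per library. Foxp3, which defines regulatory T cells, had 77.64, 86.23 and 59.18 TPM in the order of the libraries, and Il2ra at a mean of 284 TPM. Of the CD8 T cell genes, Cd8a stood at 1.02 TPM and Cd8b1 at 15.75, 21.09 and 16.99 TPM. Of the B cell genes, Cd79a stood at 13.09, 18.44 and 22.07 TPM, highest in library 3, and Ms4a1 at 4.3 TPM. The macrophage genes Csf1r, Lyz2 and Adgre1 stood at 14.2, 12.4 and 4.06 TPM, the granulocyte genes S100a8 and S100a9 at 0.0633 and 0.6 TPM, and the red cell genes Hba-a1 and Hbb-bs at means of 312 and 494 TPM. The part that other cell types had in the levels below was not tested. In bulk RNA, fewer cells of a type and less RNA per cell cannot be told apart. The libraries held 20942875, 18402479 and 17494966 estimated counts on annotated genes.

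Every one of the 78 genes was expressed. Each reached at least 1 TPM in each library, which 10436 of the 22028 protein-coding genes did. Their estimated counts ran from 45.62 for the lowest value in any library to 1919. The median member stood at 66.39, 68.14 and 61.86 TPM in libraries 1, 2 and 3, a mean of 65.46 ± 3.242 TPM (SD over libraries). The median over protein-coding genes of at least 1 TPM was 25.61 ± 3.292 TPM. By mean TPM, 72 members lay in the top 25% of protein-coding genes, and the median rank was 2770, in the top 12.6%. Together the members took 0.307, 0.318 and 0.327% of the counts of libraries 1, 2 and 3, and their TPM summed to 5702.9, 5678.9 and 5671.5.

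The members lay close to each other. Of the 78, 59 were within 2 fold of the median of their mean levels, 62.52 TPM, and the middle of the list, from the first to the third quartile, ran from 40.9 to 93.2 TPM. The SD over members of log2(mean TPM + 1) was 0.99, against 1.97 over protein-coding genes of at least 1 TPM. Mrps30 and Mrpl23 lay apart at the low end, with means of 2.53 and 5.763 TPM, and the next member, Mrps22, stood at 19.61 TPM.

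**Figure D1:**
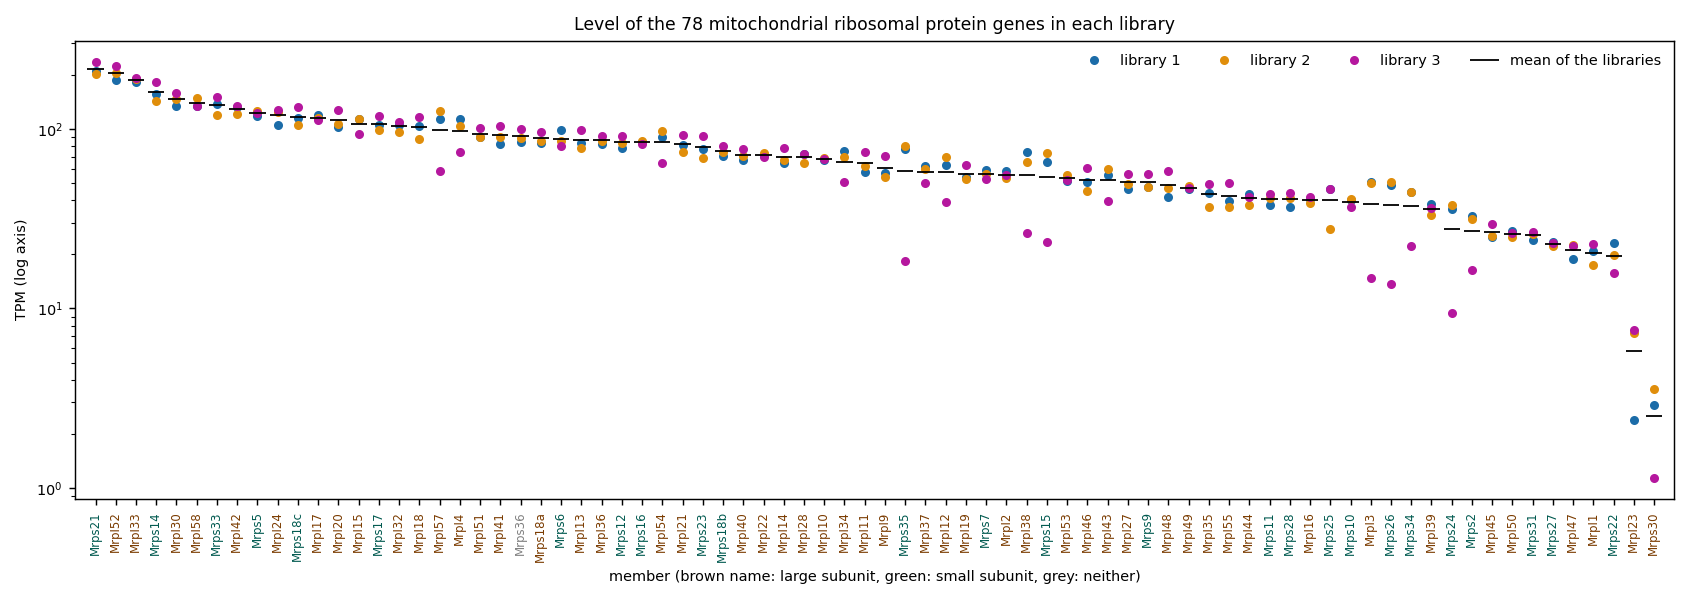
Level in TPM (log axis) of each of the 78 members in the 3 libraries, with 1 point per library and a bar at the mean, ordered by mean. Most members lie between 20 and 200 TPM with the libraries close together, library 3 drops well below the others for 12 genes, and Mrpl23 and Mrps30 stand apart at the low end.

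The highest member in the first gene table was Mrps21 (ENSMUSG00000054312.6, chromosome 3, 95862634 to 95871519, minus strand, mm10), a small subunit protein with a counterpart in bacteria. Its levels were 210.26, 202.42 and 236.98 TPM, with a mean of 216.6 ± 18.12. Library 3 was the highest of the libraries and library 2 the lowest. In the second gene table Mrps21 had 230, 219 and 215 counts, below the 457, 448 and 456 of Mrpl52, at average lengths of 417 and 436 bases. Mrpl52, a large subunit protein found only in mitochondria, followed at 188.16, 205.94 and 222.63 TPM (mean 205.6 ± 17.24). Mrpl33, the counterpart of bacterial L33, stood at 181.26, 189.93 and 191.41 TPM (mean 187.5 ± 5.483). These top levels overlapped between genes: the ranges of Mrps21 and Mrpl52 over libraries crossed, and so did those of Mrpl52 and Mrpl33.

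Mrps14, a small subunit protein near the head of the subunit, was measured at 157.18, 143.53 and 183.18 TPM (mean 161.3 ± 20.14). Mrpl30 reached 133.56, 146.86 and 158.09 TPM (mean 146.2 ± 12.28). Mrpl58, a peptidyl-tRNA hydrolase that is built into the large subunit and can release stalled ribosomes, reached 133.26, 148.92 and 133.46 TPM (mean 138.5 ± 8.984). The ranges of these 3 genes over libraries overlapped. In all, 17 members had a mean above 100 TPM, 11 of them named for the large subunit and 6 for the small.

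At the low end stood Mrps27 (23.40, 22.28 and 23.14 TPM), a pentatricopeptide repeat protein of the small subunit, and Mrpl47 (18.91, 22.49 and 22.31 TPM), which lies near the exit of the nascent chain. Mrpl1, the protein of the mobile stalk beside the site where spent tRNA leaves, was measured at 20.94, 17.39 and 22.82 TPM. Mrps22, a protein specific to mitochondria, was measured at 23.03, 19.97 and 15.82 TPM. These 4 genes were not separated from each other, since their ranges over libraries overlapped or touched in every neighbouring pair.

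The lowest member was Mrps30 (ENSMUSG00000021731.10, chromosome 13, 118378381 to 118387252, minus strand, mm10), at 2.89, 3.56 and 1.14 TPM from 124.99, 142 and 45.62 estimated counts. Its level was the lowest in library 3 and the highest in library 2. Despite its name, Mrps30 has been placed in the large subunit by structures of the mitoribosome. Its mean of 2.53 TPM held rank 9785 among protein-coding genes. Mrpl23, the next by mean, was above it in libraries 2 and 3 and below it in library 1.

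A few names hide differences of kind. Mrps18a, Mrps18b and Mrps18c descend from 1 bacterial protein, and by structure Mrps18a belongs to the large subunit and the others to the small. Mrps18c, the member that keeps the bacterial place, was measured at 114.32, 104.74 and 132.31 TPM (mean 117.1). Mrps18a was measured at 83.19, 85.55 and 96.44 TPM (mean 88.39 ± 7.068) and Mrps18b at 70.39, 74.27 and 80.49 TPM (mean 75.05 ± 5.095). Mrps18c was the highest of the 3 in each library and Mrps18b the lowest in each. Mrps36 is now known as an adaptor of the 2-oxoglutarate dehydrogenase complex and not as a ribosomal protein. It stood at 84.79, 89.23 and 99.20 TPM in the first gene table, and its count in the second table is given with the copies below.

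Mrps12, which lines the decoding centre and is the site of streptomycin resistance in its bacterial relative, was measured at 78.14, 83.61 and 90.98 TPM. Mrpl12, the stalk protein that recruits translation factors, was measured at 62.77, 69.70 and 39.26 TPM, with library 3 the lowest. Mrpl36, a small zinc-binding protein of the large subunit core, was measured at 82.28, 85.99 and 91.07 TPM. Both Mrps12 and Mrpl36 were highest in library 3, while Mrpl12 was not.

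Large and small subunit genes had close medians, and their order in library 2 depended on the grouping. By name, the 49 large subunit genes had median levels of 67.26, 67.44 and 64.92 TPM, a mean of 66.54 ± 1.406. The 29 small subunit genes had medians of 65.51, 68.85 and 52.31 TPM, a mean of 62.22 ± 8.746. With this grouping the small subunit was above the large in library 2 and below it in libraries 1 and 3. The log2 ratio of medians, large over small, was 0.10 ± 0.18 on the log2(TPM + 1) scale. Placing Mrps30 and Mrps18a in the large subunit and leaving Mrps36 out, as structures do, gave 51 and 26 genes with medians of 66.54 ± 1.406 and 57.91 ± 7.600 TPM. The large subunit was then above the small in each library, at 67.26, 67.44 and 64.92 against 62.24, 62.36 and 49.14 TPM. The log2 ratio was 0.21 ± 0.16.

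Genes with a bacterial counterpart stood higher than genes added in mitochondria. Origins were assigned from general knowledge of mitoribosome structures, with Mrps18c taken as the counterpart of its bacterial relative and Mrps18a and Mrps18b placed with the genes added in mitochondria. The 46 with a counterpart had medians of 69.50, 69.86 and 71.77 TPM (mean 70.38 ± 1.218), and the 31 without one had medians of 55.37, 59.96 and 50.18 TPM (mean 55.17 ± 4.893). The order was the same in each library, with a log2 ratio of 0.35 ± 0.15. On estimated counts, which are not divided by transcript length, the log2 ratio was 0.08 ± 0.04. The lowest group was that of the 10 small subunit genes without a counterpart, at 47.34, 47.38 and 24.83 TPM (mean 39.85 ± 13.01). These are descriptions of 1 biological sample, and no test between the gene groups was made.

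Short transcripts had the higher levels. The median member had an average transcript length of 949.4 bases, against 2262 over protein-coding genes of at least 1 TPM. Over the 78 members Spearman's rho of length and mean TPM was -0.67, and over 10436 protein-coding genes of at least 1 TPM it was -0.27. With estimated counts in place of TPM, rho over the members was -0.01. The members share these libraries, and TPM divides by length.

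The genes around the mitoribosome mostly stood lower than its proteins. The 5 mitoribosomal proteins that carry other names were Aurkaip1 (163.61, 160.08 and 168.06 TPM), Dap3 (132.15, 126.69 and 126.93 TPM), Chchd1, Ptcd3 and Gadd45gip1. Dap3 binds GTP and was first described in cell death. Their medians were 94.57, 97.19 and 117.6 TPM, a mean of 103.1 ± 12.59, with Gadd45gip1 the lowest at 20.36 TPM. The 25 genes of mitoribosome assembly had a median of 23.99 ± 7.007 TPM, led by the helicase Dhx30 (134.11, 117.12 and 106.36 TPM), Mettl17 (91.65 ± 1.38 TPM) and Mterf3 (86.15 ± 10.6 TPM). Library 3 was the lowest for this median, at 15.97 TPM beside 27.05 and 28.94.

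The 14 mitochondrial translation factors had a median of 35.91 ± 5.384 TPM. Tufm, the elongation factor that brings tRNA to the ribosome, led at 106.91, 105.85 and 103.92 TPM, ahead of the RNA-binding Slirp (66.11 ± 4.73 TPM) and the membrane insertase Oxa1l (53.30 ± 3.13 TPM). The 17 mitochondrial aminoacyl-tRNA synthetases, which load tRNAs with amino acids, had a median of 16.91 ± 3.649 TPM. Lars2 was far above the rest at 339.75, 483.57 and 491.92 TPM, followed by Tars2 (71.14 ± 3.17 TPM) and Rars2 (49.95 ± 6.01 TPM). Library 1 was the lowest for Lars2.

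Transcription and upkeep of mitochondrial DNA was led by Ssbp1 (108.8 ± 9.31 TPM), Tfam (100.1 ± 6.53 TPM) and Polg (46.18 ± 24.0 TPM), which bind single strands, package the genome and copy it. Over all 10 such genes the median was 24.08 ± 3.927 TPM. Among 10 regulators of mitochondrial biogenesis the highest were Myc (132.4 ± 39.6 TPM), Nrf1 (73.28 ± 4.31 TPM) and Gabpb1 (54.62 ± 22.7 TPM). Ppargc1a, a coactivator of mitochondrial genes in muscle and brown fat, was under 1 TPM at 0.20, 0.21 and 0.06 TPM, from 9, 8 and 4 counts. All other genes of these lists reached 1 TPM in each library.

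Transcripts encoded in mitochondrial DNA, which the mitoribosome translates, stood far above the transcripts of its own proteins. The 13 subunits encoded in mitochondrial DNA had medians of 1425, 1514 and 1797 TPM (mean 1579 ± 194.2), led by mt-Co3 (6709 ± 1240 TPM), mt-Co1 (4971 ± 620 TPM) and mt-Atp6 (4120 ± 326 TPM). The ribosomal RNAs mt-Rnr2 and mt-Rnr1 were measured at 5741 ± 1720 and 1311 ± 484 TPM, as far as polyA selection keeps them. The cytosolic ribosomal proteins, 86 genes chosen by name, had medians of 592.4, 730.6 and 870.0 TPM (mean 731.0 ± 138.8), above the median of the mitochondrial ones in each library.

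**Figure D2:**
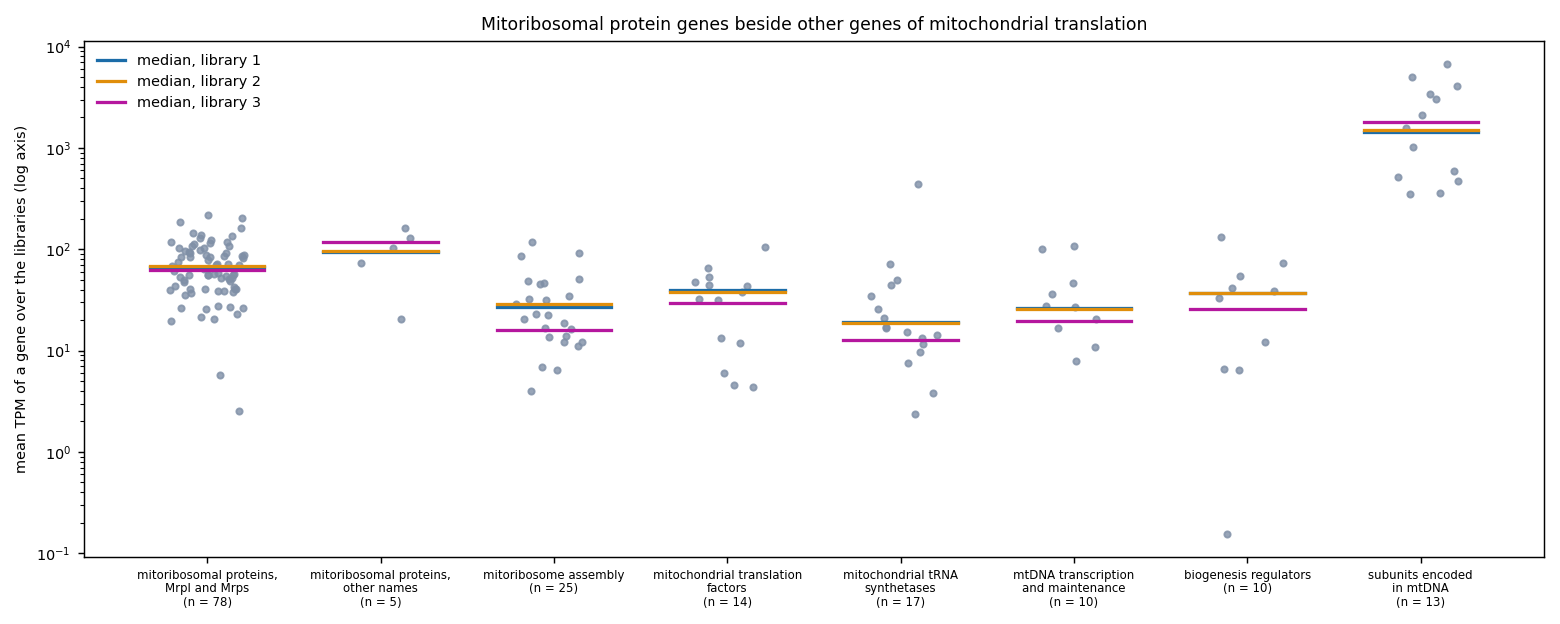
Mean TPM of each gene (points, log axis) in the mitoribosomal protein genes and 7 other lists, with bars at the median of each library. The 78 mitoribosomal protein genes have medians of 61.86 to 68.14 TPM, above assembly factors, translation factors and synthetases, and far below the subunits encoded in mitochondrial DNA.

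The libraries were then compared, since they are the only contrast the design holds. A Pearson chi-square test asked of each gene whether its counts differed between libraries by more than counting error, with a Benjamini-Hochberg adjusted p under 0.05 over all 14877 genes whose mean count reached 10. It called 56 of the 78 members, beside 63.9% of all genes tested. Library 3 was above the mean of libraries 1 and 2 in 35 of the 78 members and called, and below it in 21 and called, beside 29.7 and 34.1% of all genes tested. Among called genes, library 3 was above in 62.5% of the members and in 46.6% of all genes. Of the 56, 43 differed by less than 1.5 fold between the highest and the lowest library. Over the 78 members, Spearman's rho of TPM was 0.98 between libraries 1 and 2, 0.88 between 1 and 3, and 0.86 between 2 and 3.

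A difference of at least 1.5 fold was called in 13 members, beside 32.2% of all genes tested. In 12 of them library 3 was the furthest out and the lowest (19.9% of all genes tested), and in none was it the furthest out and the highest (2.39%). Without library 3, 11 members were called and 1 differed by at least 1.5 fold, beside 30.2 and 7.15% of the genes tested in that setting. The 12 genes were Mrpl57, Mrpl54, Mrps35, Mrpl12, Mrpl38, Mrps15, Mrpl3, Mrps26, Mrps34, Mrps24, Mrps2 and Mrps30. They held both subunits and both origins. The other was Mrpl23, which on scaled counts was the highest in library 2.

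The largest difference was that of Mrps35, a protein of the small subunit found only in mitochondria. It was measured at 77.20, 80.17 and 18.32 TPM, from 707, 629 and 154 estimated counts. Library 3 lay far below, at a log2 ratio of -2.03 to the mean of the others in scaled counts (chi-square test, Benjamini-Hochberg adjusted p = 1.66e-69). The second gene table gave 457, 421 and 118 counts, with library 3 again the lowest.

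Mrps24, the counterpart of bacterial S3 at the mRNA entry, was measured at 35.66, 37.80 and 9.45 TPM. Its log2 ratio was -1.91 (chi-square test, adjusted p = 1.53e-29). Mrps26 was measured at 48.47, 50.43 and 13.76 TPM, a log2 ratio of -1.77 (chi-square test, adjusted p = 2.71e-59). In both genes libraries 1 and 2 were close and library 3 stood alone.

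Mrpl3, a large subunit core protein that reaches the peptidyl transferase centre, was measured at 50.54, 49.70 and 14.85 TPM, a log2 ratio of -1.64 (chi-square test, adjusted p = 2.13e-63). Mrps15 was measured at 65.51, 73.28 and 23.38 TPM, a log2 ratio of -1.59 (chi-square test, adjusted p = 3.25e-58). Mrpl38 was measured at 74.65, 65.35 and 26.16 TPM, a log2 ratio of -1.34 (chi-square test, adjusted p = 4.54e-58). For these 3 genes, too, the values of libraries 1 and 2 were 2 fold or more above that of library 3.

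Mrps34, which is needed for small subunit stability, was measured at 44.27, 44.32 and 22.41 TPM, a log2 ratio of -1.03 (chi-square test, adjusted p = 4.58e-22). Mrps30 had a log2 ratio of -1.45 (chi-square test, adjusted p = 1.47e-10) on far fewer counts. Among the other members, Mrpl57 was measured at 112.74, 125.06 and 58.04 TPM, above the members' median in libraries 1 and 2 and below it in library 3. Library 3 was below the others in 53.4% of all called genes. In the other lists it was below in 11 of 15 called assembly genes, 8 of 12 synthetases, 5 of 8 translation factors, 4 of 5 genes of transcription and maintenance, 5 of 7 regulators and 1 of 3 mitoribosomal proteins under other names. It was above in all 13 subunits encoded in mitochondrial DNA.

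The GC content of the transcript moved with these differences. For each gene, the leading transcript, here that of highest mean TPM, was scanned in windows of 200 bases. The share of G and C in the richest window was taken as the gene's local GC content. Over the 78 members Spearman's rho of local GC and the log2 ratio of library 3 was -0.59, and over 11795 protein-coding genes it was -0.49. Among the 27 members of lowest local GC (49.0 to 59.0%) the median log2 ratio was 0.21, and among the 25 in the middle (59.5 to 66.0%) it was 0.16. Among the 26 of highest local GC (67.0 to 77.5%) it was -0.51, and these held 11 of the 12 genes that were lowest in library 3 by at least 1.5 fold. Removing the trend of each library on local GC, fitted over all genes, gave 47 called members (58.7% of all genes tested), of which 40 had been called before and 7 had not. It gave 11 with at least 1.5 fold (27.8%): 9 of the 13, without Mrpl54, Mrpl12, Mrps34 and Mrps2, and with Mrps7 and Mrpl39 added, both higher in library 3. The log2 ratios of most of the genes described above became smaller, from -1.91 to -1.21 in Mrps24, -1.77 to -0.93 in Mrps26 and -1.64 to -0.92 in Mrpl3. They went from -1.59 to -0.75 in Mrps15, -1.45 to -0.61 in Mrps30 and -1.34 to -0.68 in Mrpl38. That of Mrps35 did not become smaller, at -2.03 before and -2.16 after. Mrps6 changed sign and was called both ways, at -0.19 before and 0.47 after. Mrps34 was no longer called then, at a log2 ratio of -0.18 (chi-square test, adjusted p = 0.258). Whether GC content is what set these differences was not tested.

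**Figure D3:**
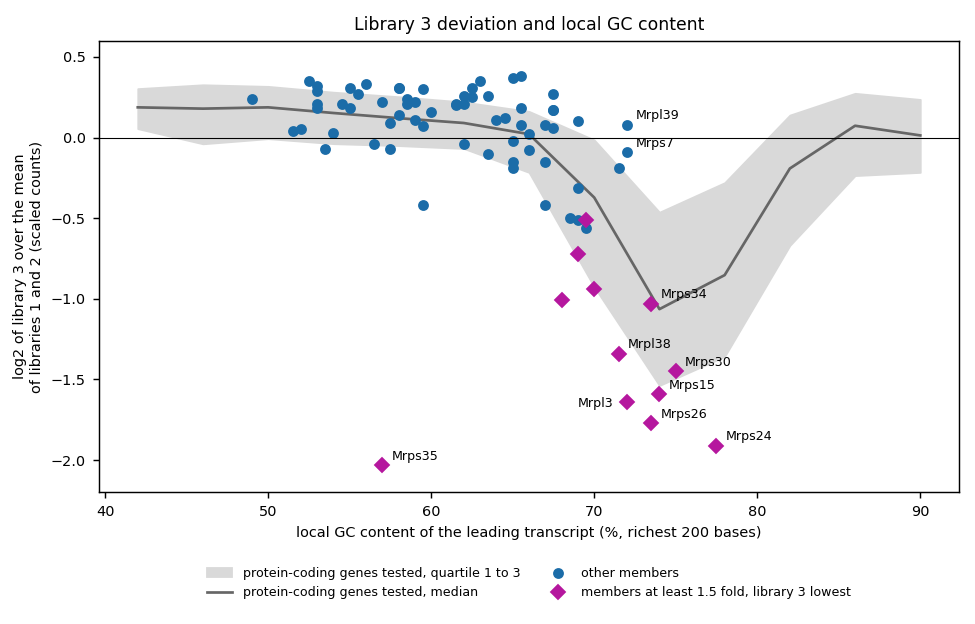
Log2 ratio of library 3 to the mean of libraries 1 and 2 against local GC content (%), with each member as a point and the protein-coding genes tested as a grey line (median) and band (quartiles). The members with at least 1.5 fold lower library 3 lie at 68 to 77.5% local GC, where the band also drops, except Mrps35 at 57%.

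Mrps35 was the exception in its leading transcript, with a local GC of 57.0%. The coding region of the Mrps35 transcript with the longest annotated coding region held a stretch of 60 bases that was 80.0% G or C. The richest 60-base windows of the coding regions are printed below for 4 of the genes that were low in library 3 and for 4 that were not, chosen after their values were seen, to show what such stretches look like. Capitals mark runs of 5 or more G or C bases, and each sequence reads from 5′ to 3′ in the sense direction of the GENCODE M21 transcript.
Mrps24, chromosome 11, log2 ratio -1.91: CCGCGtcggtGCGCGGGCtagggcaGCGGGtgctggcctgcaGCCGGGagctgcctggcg
Mrps26, chromosome 2, log2 ratio -1.77: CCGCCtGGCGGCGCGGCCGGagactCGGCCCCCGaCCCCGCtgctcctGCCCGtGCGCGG
Mrps30, chromosome 13, log2 ratio -1.45: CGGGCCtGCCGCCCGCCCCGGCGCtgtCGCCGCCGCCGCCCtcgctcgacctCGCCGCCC
Mrps35, chromosome 6, log2 ratio -2.03: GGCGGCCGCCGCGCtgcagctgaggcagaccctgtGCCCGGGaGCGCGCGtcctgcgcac
Mrpl39, chromosome 16, log2 ratio 0.08: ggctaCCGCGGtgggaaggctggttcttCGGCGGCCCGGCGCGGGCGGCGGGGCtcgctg
Mrps7, chromosome 11, log2 ratio -0.09: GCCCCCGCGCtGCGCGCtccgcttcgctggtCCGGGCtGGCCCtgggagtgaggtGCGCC
Mrps21, chromosome 3, log2 ratio 0.22: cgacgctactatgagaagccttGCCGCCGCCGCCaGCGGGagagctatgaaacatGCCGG
Mrpl1, chromosome 5, log2 ratio 0.24: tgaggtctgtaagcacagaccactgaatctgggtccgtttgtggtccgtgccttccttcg

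A GC-rich coding stretch was present in all 12 of the genes that were low in library 3, and also in others. The 12 genes had richest coding windows of at least 75% G or C, and the median of the other members was 70.0%. A window of 75% or more, a limit set after its values were seen, was present in 27 members, of which 12 were the genes above and 6 had a library 3 level not below the others. Mrpl39 and Mrps7, both with a window of 80.0%, were 2 of those that did not drop by 1.5 fold, and neither was called. With the GC trend removed both were called, at log2 ratios of 0.80 and 0.63 (chi-square test, Benjamini-Hochberg adjusted p = 3.69e-38 and 8.87e-24). Spearman's rho of the window's GC and the log2 ratio of library 3 was -0.57 over the 78 members. In 9 of the 12 genes the window lay within the first 100 coding bases, as it did in 47 of all 78.

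Many of these genes were assigned mostly to transcripts that are not annotated as coding. The deposited transcript tables give an estimated share of each gene's TPM to each of its transcripts. In 20 of the 78 members, or 25.6%, the transcript with the highest mean share over libraries was annotated as something other than protein coding. Of protein-coding genes of at least 1 TPM it was so in 13.4%. Mrpl23 was among the 20 through the retained intron transcript Mrpl23-205, at 1.89, 2.54 and 0.94 TPM. Its coding transcript Mrpl23-207, at 0, 3.13 and 5.81 TPM, was the higher by mean TPM. Of the summed TPM of the members, 31.38, 32.12 and 29.53% lay on transcripts not annotated as protein coding (mean 31.01 ± 1.34%). For protein-coding genes of at least 1 TPM the share was 22.05 ± 0.44%. On estimated counts the shares were 25.44 ± 1.45 and 15.09 ± 0.42%. The median over genes of this share was 17.26 ± 0.44 and 14.31 ± 0.83% on TPM, and 15.44 ± 1.47 and 6.64 ± 0.42% on estimated counts. No test between these gene sets was made, and short reads do not settle which transcript a read came from.

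The annotated types differed in how they compared with other genes. Transcripts marked for nonsense-mediated decay, the pathway that degrades RNA with an early stop, took 9.84 ± 0.68% of member TPM against 4.45 ± 0.12% for protein-coding genes of at least 1 TPM. Retained intron transcripts took 11.55 ± 1.79 against 11.58 ± 0.32%, and processed transcripts, a class without an open reading frame call, took 9.62 ± 0.31 against 6.0 ± 0.2%. The retained intron share of the members was lowest in library 3, at 9.54%, beside 12.12 and 12.97%.

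Mrps14, the highest of the 20, had 92.7, 92.7 and 93.6% of its TPM on Mrps14-201, marked for nonsense-mediated decay, which is 674 bases long. Its coding transcript Mrps14-203 is 2999 bases long and held 22.85% of the gene's counts but 5.91% of its TPM. Mrps18c had 56.1 ± 5.38% of its TPM on Mrps18c-206, and Mrpl32, whose maturation by the matrix protease m-AAA is known to license ribosome assembly, had 82.7 ± 2.23% on Mrpl32-201, both of the decay type. In Mrps14 the 3 libraries gave shares within 1 percentage point of each other, and in Mrps18c the share was lowest in library 1.

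Mrpl20 and Mrpl15 were led by processed transcripts, with 61.1 ± 1.72% on the leading transcript of Mrpl20 and 54.9 ± 2.62% on that of Mrpl15. Mrpl57 had 97.4 ± 0.09% on Mrpl57-202, a retained intron transcript of 519 bases. Mrps26 and Mrps24, both low in library 3, were also led by retained intron transcripts, with 97.6 ± 0.78% on Mrps26-201 and 91.4 ± 0.70% on Mrps24-201. In these 2 genes the leading share was about the same in library 3 as in the others (96.7 and 91.2%), while the level of the leading transcript was 47.52, 49.48 and 13.30 TPM in Mrps26 and 32.40, 34.87 and 8.63 TPM in Mrps24.

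**Figure D4:**
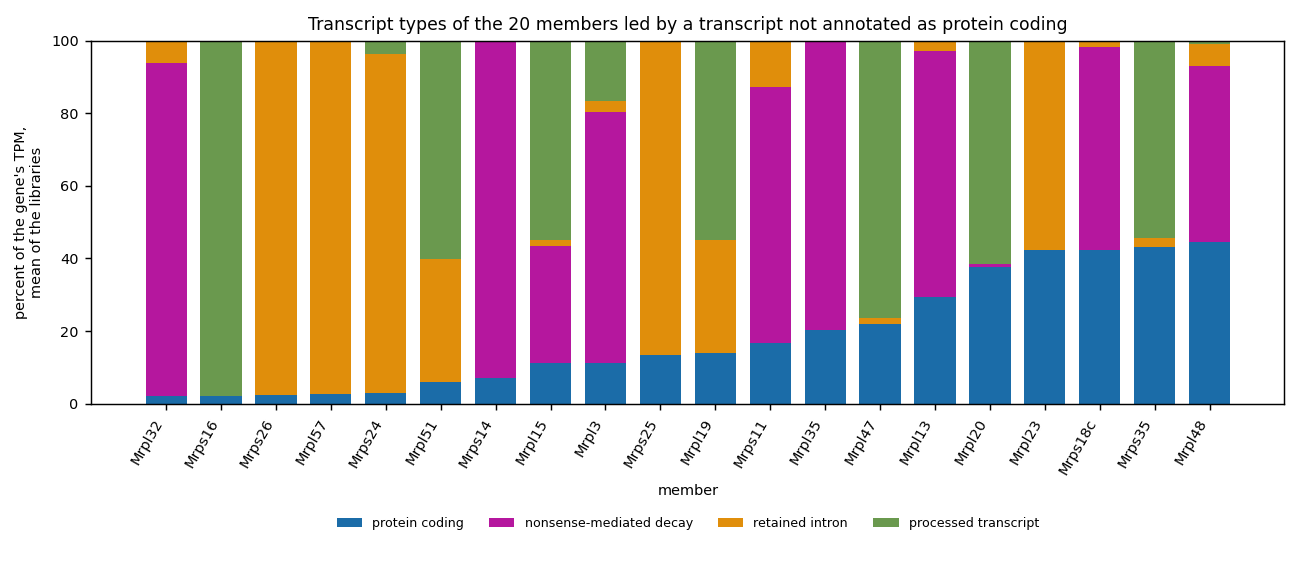
Percent of each gene's TPM on 4 annotated transcript types (stacked bars, mean of the libraries) for the 20 members led by a transcript not annotated as protein coding. The coding share runs from 2.1% in Mrpl32 and Mrps16 to 44.5% in Mrpl48.

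Copies in the genome complicated the values of a few genes. Mrpl23, a large subunit protein near the tunnel exit, was given 2.39, 7.32 and 7.58 TPM by the first gene table. Its processed pseudogene Mrpl23-ps1 (chromosome 2, 74591330 to 74591909, minus strand, mm10) was given 144.39, 142.60 and 156.83 TPM, from 998.61, 906.98 and 996.71 estimated counts. The gene itself had 94.39, 145.02 and 85.29 counts. Of these, 90.11, 111.62 and 41.05 were given to Mrpl23-205, a retained intron transcript. The gene was far below its copy in each library. Of the 516 coding bases of Mrpl23-206, 421 aligned to Mrpl23-ps1 and all 421 were identical, and 79.7% of the 50-base words of the coding region occurred in the pseudogene.

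A stretch of 90 bases shared by the coding region of Mrpl23 (bases 96 to 185 of the coding region, chromosome 7) and the pseudogene transcript (bases 35 to 124, chromosome 2) is shown as an example of what the loci share. It reads the same from 5′ to 3′ in both, from GENCODE M21 transcripts, and no base is in capitals because no base differs.
Mrpl23: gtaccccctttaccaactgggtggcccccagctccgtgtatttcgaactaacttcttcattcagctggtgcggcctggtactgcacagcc
Mrpl23-ps1: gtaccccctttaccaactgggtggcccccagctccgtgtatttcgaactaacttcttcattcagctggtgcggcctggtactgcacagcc

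The level of Mrpl23 is uncertain, as is its difference between libraries (chi-square test, Benjamini-Hochberg adjusted p = 1.81e-05), since the counting could split reads between the loci. The other named copies of members were near 0: Mrpl48-ps had 0.34 TPM in library 2 and 0 in the others, Mrps36-ps1 had 1.22 TPM in library 3 and 0 in the others, and 2 more copies of Mrps36 were listed at 0. Of the 78 leading transcripts, 44 had no 50-base word in common with another gene, and 12 had over 20% of their words in common with one.

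The second gene table was made with GENCODE M4 and a counting rule that the sources used here do not give. It held 77 of the 78 members, without Mrpl33. The chi-square test on its counts called 41 of the 76 members tested (56.7% of all genes tested), 12 of them with at least 1.5 fold (29.8%). Spearman's rho of the mean counts in the 2 tables was 0.60. There were 5 members that departed from the typical ratio of the tables by over 2 fold, beside 18.7% of protein-coding genes compared, and 3 by over 4 fold, beside 7.86%. Mrps36 had 15, 9 and 18 counts there and 651.9, 615 and 736 estimated counts in the first table. Mrps33, a small subunit protein specific to mitochondria, had 52, 52 and 52 counts against 934.64, 725.94 and 991.83.

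The fifth of these members was Mrps21, at a log2 departure of -1.01. Mrpl23 had 6, 10 and 5 counts in the second table, and Mrpl51 had 190, 175 and 199 against 1011.65, 940.88 and 1057.13. All 5 genes were lower in the second table. Of the 50-base words of the leading transcripts, 36.2% in Mrps36, 23.9% in Mrps33, 84.7% in Mrpl23 and 18.9% in Mrpl51 occurred in other genes. The genes that shared the most words with them were Mrps36-ps1, Gm5776, Mrpl23-ps1 and Gm14017, in that order. Mrpl53 had 100% of its words in other genes, with Gm42688 sharing the most, and departed by a log2 value of 0.11. Mrpl22, Mrpl27, Mrps6, Mrps18b, Mrpl48, Mrps18c and Mrps10 also had over 20% and departed by less than 2 fold. Their log2 values ran from -0.94 in Mrps10 to 0.14 in Mrps18c. The part of the copies in the departures was not tested.

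**Figure D5:**
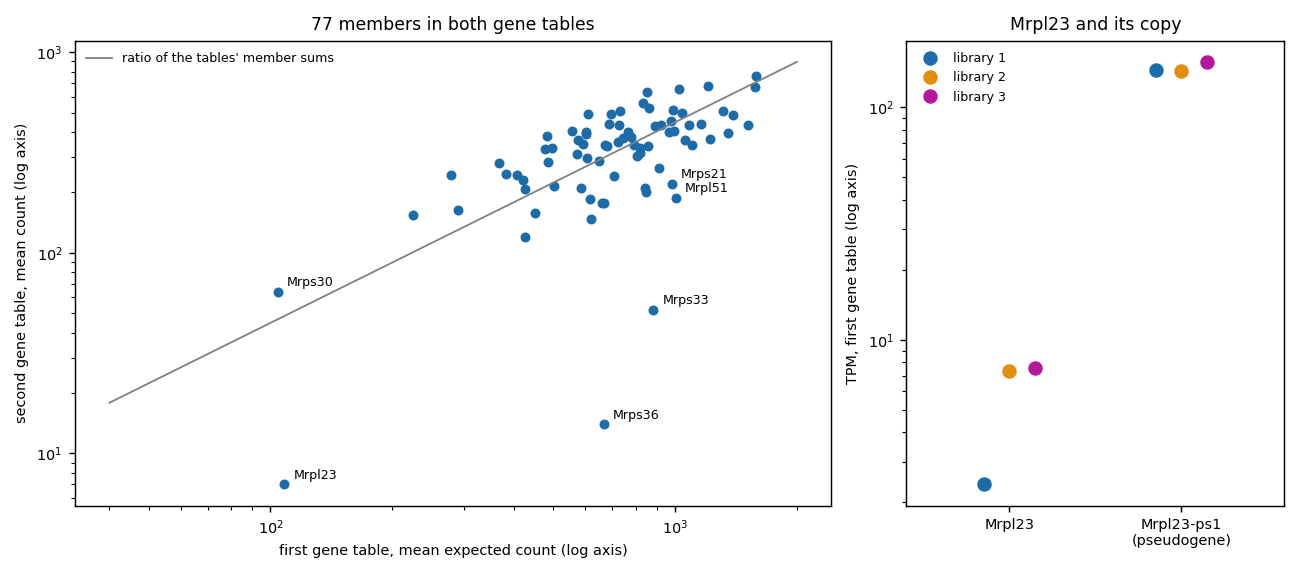
Left, mean count of 77 members in the second gene table against mean estimated count in the first (both log axes), with a line at the ratio of the tables' sums over these members. Right, TPM of Mrpl23 and its pseudogene in each library (log axis), where the pseudogene stands at 142.60 to 156.83 TPM and the gene at 2.39 to 7.58 TPM.

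Many members start next to a gene that runs the other way. In 33 of the 78, or 42.3%, the start of another protein-coding gene on the opposite strand lay within 1000 bases, beside 1885 of 10436 or 18.1% of protein-coding genes of at least 1 TPM. One such pair, Mrpl46 and Mrps11, joins a large and a small subunit gene at a distance of 412 bases on chromosome 7, and its members stood at 52.1 and 40.8 TPM. Others pair a member with another gene of mitochondrial function: Mrps12 with the synthetase Sars2 (84.2 and 14.4 TPM), Mrpl43 with the mitochondrial helicase Twnk (51.6 and 16.6 TPM), and Mrpl36 with the complex I subunit Ndufs6 (86.4 and 167.0 TPM).

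The levels of neighbours differed widely. Mrpl49 stood at 47.1 TPM beside Fau, a cytosolic ribosomal protein gene, at 830.0 TPM, and Mrpl57 at 98.6 TPM beside Ska3 at 2.4 TPM. Over the 33 members Spearman's rho of a member's level and its partner's was 0.11, with the Mrpl46 and Mrps11 pair counted from both sides. The partner was above the member in 9 of the 33. Exons of 33 members overlapped another gene, 28 of them on the opposite strand, and reads from such overlaps cannot be told apart where counting did not use strand, on which the sources used here are silent. The members lay on 17 chromosomes, with 11 on chromosome 11.

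The promoters of the members held some short motifs more often than those of other genes. Promoter sequences of 69 members, 75 windows from 250 bases before to 50 after a start, came from RefSeq on GRCm38.p6. The letters CCGGAAG, known as an ETS factor site and bound by the GABP complex, or CTTCCGG on the other strand, were in 26 of the 69, or 37.7%, against 23% of 8299 expressed protein-coding genes and 9.9% of all 27025 genes. The letters AAGATGGC or GCCATCTT, known as a YY1 site, were in 12 of 69, or 17.4%, against 5.9 and 3.2%. The Nrf1 motif, whose letters read the same on both strands and are printed in capitals further on, were in 3, or 4.3%, against 2.7 and 1.1%. GGGCGG or CCGCCC, the SP1 letters, were in 34 of 69, or 49.3%, against 69.2 and 38.2%. The NFY letters CCAAT and the TATA letters TATAAA, with their reverse complements, were in 39.1 and 7.2% of members against 43.5 and 8.3% of the expressed genes. For TGACGTCA, the CRE site, the shares were 2.9 and 3.8%, and for CACGTG, the E-box, 7.2 and 12.2%. No test was made, and a match is a description of letters and not a bound site.

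The YY1 letters were found on both strands. The 4 hits on the other strand, in Mrpl32, Mrps12, Mrps11 and Mrpl36, lay between 242 and 30 bases before the start site. All 8 hits on the gene's own strand lay between 11 and 36 bases after the start site, and in 6 of them the ATG inside the letters was an annotated start codon. Windows of 30 bases around these 6 are printed with the YY1 letters in capitals, each from 5′ to 3′ on the strand given, on GRCm38.p6.
Mrpl35, chr6:71823743-71823772, minus strand: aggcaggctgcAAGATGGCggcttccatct
Mrpl49, chr19:6057721-6057750, minus strand: gttgaggcgccAAGATGGCagcagcggtgt
Mrps18a, chr17:46111004-46111033, plus strand: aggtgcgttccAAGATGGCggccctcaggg
Mrps24, chr11:5707652-5707681, minus strand: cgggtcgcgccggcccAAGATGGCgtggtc
Mrps27, chr13:99344789-99344818, plus strand: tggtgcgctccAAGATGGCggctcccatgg
Mrps7, chr11:115604147-115604176, plus strand: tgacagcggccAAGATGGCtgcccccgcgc

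The 6 genes ranged in level from Mrps27, at 22.94 TPM, to Mrps18a, at 88.39 TPM. The ETS letters were found 31 times in the 26 genes, and 26 of the hits lay between 60 bases before and 50 after the start site. They are shown for 4 members of high level and for Mrps18a, all chosen after their values were seen, the last of which carries both kinds of letters, with CCGGAAG or its complement CTTCCGG in capitals.
Mrps21, chr3:95871478-95871507, minus strand: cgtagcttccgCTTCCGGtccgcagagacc
Mrpl52, chr14:54426900-54426929, plus strand: ggccacgcccaCTTCCGGttcccttgctcc
Mrpl33, chr5:31613937-31613966, plus strand: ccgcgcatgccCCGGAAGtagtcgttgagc
Mrpl58, chr11:115403724-115403753, plus strand: ctggcggaccgCCGGAAGagtgagcaccgg
Mrps18a, chr17:46110967-46110996, plus strand: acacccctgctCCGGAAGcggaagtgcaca

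The 26 members with the ETS letters had a median of 83.2 TPM, with quartiles of 52.0 and 112.0, and the 43 without them a median of 55.5, with quartiles of 39.5 and 87.4. The quartile ranges overlapped. For the YY1 letters the medians were 56.6 TPM in 12 members with them and 65.2 in 57 without. Genes of the factors themselves were expressed, with Gabpa at 45.05, 39.64 and 31.79 TPM, Nrf1 at 74.32, 76.98 and 68.55 TPM and Yy1 at 6.58, 6.75 and 6.20 TPM. The Nrf1 letters in 3 members were as follows, in capitals.
Mrpl32, chr13:14613105-14613134, minus strand: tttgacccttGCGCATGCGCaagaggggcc
Mrpl39, chr16:84735350-84735379, minus strand: aaggagaggcGCGCATGCGCccccgcgtgg
Mrpl9, chr3:94443298-94443327, plus strand: aggcgcagctGCGCATGCGCggggtccttc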

How the data were processed

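PolyA-selected RNA of 1 biological replicate was sequenced as 3 libraries. The deposited text beside the tables names mm10. The sources used here do not give the aligner, the counter or the use of strand. The deposited first gene table holds expected counts (estimated counts, not rounded by the authors), TPM and FPKM on GENCODE M21. The deposited transcript tables hold expected counts, TPM and the percent of a gene's TPM on each transcript. The deposited second gene table holds whole-number counts on GENCODE M4. The totals were 20942875, 18402479 and 17494966 expected counts in the first gene table and 6339932, 5775622 and 5056487 counts in the second.

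Levels are TPM as deposited, with the SD over libraries. Expected counts were rounded and scaled with TMM factors from edgeR 4.0.16 in R 4.3.3, and genes whose mean count reached 10 were compared between libraries by a Pearson chi-square test with 2 degrees of freedom (scipy 1.17.1, Python 3.11.15), with Benjamini-Hochberg adjustment over all of them. The script was tested on counts simulated with counting error alone, apart from genes changed on purpose. It called 8 of 14689 unchanged genes and 39 of 50 genes changed 2 fold. Such counts lack the further spread between the real libraries, so these results do not cover it. The fold between libraries is the highest over the lowest scaled count. The trend on local GC content was a lowess fit (statsmodels 0.14.6, fraction 0.3) over genes whose mean count reached 100. Alternatives were DESeq2 1.42.0 size factors, total counts, other count minimums, other units, the second gene table and leaving out each library.

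Genes named were the 6 highest and 6 lowest members, the 8 with the largest called deviation of 1 library, the 4 that depart most between the tables, up to 6 led by a transcript not annotated as coding, a fixed set of members, and the 3 highest of each other list with those under 1 TPM. Genes named for promoter letters, neighbours, copies and GC windows were chosen after their values were seen. The members and the gene lists were chosen with earlier results of these data known, and a relation of library 3 to GC content was among those results.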

Additional observations from a re-analysis of the deposited data

How the results depend on the processing

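The median level of the members was 65.46 TPM, 42.54 in FPKM and 57.95 on the second gene table (counts scaled for length and depth), and leaving out each library gave 64.12 to 67.27 TPM. The log2 ratio of large over small subunit medians was 0.10, 0.21 with subunits by structure, 0.39 in the second gene table and 0.00 to 0.17 without each library. The log2 ratio of members with over members without a bacterial counterpart was 0.35, 0.08 on expected counts and 0.27 to 0.42 without each library. On expected counts in place of TPM, the median share of the leading transcript was 77.59% against 78.82%, and the share on transcripts not annotated as coding 25.44% against 31.01%. A limit of 4 fold left 3 of the 5 members that departed between the tables. Members called were 47, 51 and 11 without libraries 1, 2 and 3, beside 51.5, 54.0 and 30.2% of the genes tested in each setting. Those with at least 1.5 fold were 13, 11 and 1, beside 23.9, 27.3 and 7.15%. The lowest values came without library 3, for the members and for all genes tested. Mrps34 lost its call once the GC trend was removed, at a log2 ratio of -0.18 (chi-square test, Benjamini-Hochberg adjusted p = 0.258). Of the results compared here none reversed, but with the GC trend removed the library 3 ratio changed sign in 8 members, of which Mrps6 was called both ways (-0.19 and 0.47). The cause of these changes was not tested. No paired analysis was possible because the libraries form 1 group. Low counts limit Mrps30 and Mrpl23, and the single biological replicate limits all values.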
